A study of Mus musculus with 4 samples.

Results

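Chondromodulin (Cnmd) and tenomodulin (Tnmd), the vascular endothelial growth factors Vegfa, Vegfc and Pgf, angiopoietin Angpt1 and the angiopoietin-like genes Angptl2, Angptl4 and Angptl7 were followed in cells of mouse tail intervertebral discs. These 9 genes were taken by symbol, and each symbol matched 1 of the 32285 rows of the feature tables. Their unique molecular identifiers (UMIs, each standing for 1 captured transcript) were counted in droplet libraries over all cell barcodes with at least 250 detected genes. All mice were wildtype C57BL/6 females, 12 weeks old. In the injured group, discs CC5/6 to CC9/10 of the tail were pierced from both sides with a 30G needle and taken after 7 days. In the control group, unpierced discs CC12/13 to CC16/17 were taken from the tails of those same animals, so tail level and injury cannot be told apart. Discs of 6 mice, 30 per group, were pooled into 1 suspension, frozen, thawed and sorted for viable cells, and there was 1 control and 1 injured library in each of 2 rounds. The labels do not say whether 6 mice stands for each round. A pool has no spread between animals, so a p-value below measures only the spread between 2 pools per group. A fit with round as a block has only 2 within-round differences per gene. Its p-values measure how far these disagree and lean on spread shared across genes. Groups of 2 libraries that do not overlap give an exact two-sided permutation p of 0.33, so a lack of overlap below is only a description. The share of all genes without overlap was not counted.

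A healthy disc is among the largest tissues without blood vessels, and its cells secrete factors that hold vessels off as well as factors that draw them in. Chondromodulin and tenomodulin are related membrane proteins of cartilage and tendon whose cleaved extracellular part blocks the growth of endothelial cells. VEGF-A acts on endothelial cells through the receptors encoded by Kdr and Flt1, placental growth factor (Pgf) through Flt1 alone, and VEGF-C mainly through Flt4 on lymphatic vessels. Angiopoietin 1 activates the Tie2 receptor (Tek) and steadies vessels. Angiopoietin-like proteins share its fold but do not bind Tie2. ANGPTL4 inhibits lipoprotein lipase and is induced by fasting and low oxygen, ANGPTL2 is a secreted factor tied to inflammation and tissue remodelling, and ANGPTL7 is a matrix-associated protein best known from cornea and the outflow tissue of the eye.

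The 4 libraries held 378 (control round 1), 856 (control round 2), 778 (injured round 1) and 1834 (injured round 2) cells. Over all listed barcodes they held 1114210 to 16972879 UMIs, of which 1064193 to 10558620 lay in cells, and the median per cell was 1061.5 and 836 UMIs in the controls against 7033.5 and 4635 in the injured libraries. The matrix of control round 1 lists only 444 barcodes, and 122 of its 378 cells have barcodes that are also filled in injured round 1. Leaving those 122 out raised its median to 3089.5 UMIs per cell. Without those 122 the log2 fold changes below moved by little (Cnmd over all cells from -2.34 to -2.41, Angptl7 from -2.11 to -2.17, Tnmd from -1.02 to -1.07), and the cluster led by Myoc holds none of them. Leaving them out keeps 139 of the 235 inner class cells of control round 1 counted below, and none of its 95 cells in the Cxcl2 cluster. Cells were clustered with the 9 genes left out, which gave 19 clusters. Of the disc-cell classes, 6 clusters matched markers of inner annulus or cartilage-like cells (235 and 284 control cells, 493 and 1122 injured cells) and 3 those of outer annulus or fibroblast-like cells (6 and 4 control cells, 22 and 427 injured cells). The nucleus pulposus-like cluster, led by Car3 and T, held 29 and 71 control cells against 5 and 1 injured cells. Single clusters were macrophage or monocyte-like (4 control and 119 injured cells), endothelial-like (12 and 53) and mural-like (4 and 31). The remaining 6 clusters stayed unnamed, among them clusters led by mitochondrial genes, by Ccl11, by Krt18 and by Ctrb1. All 12 endothelial markers and all 10 mural markers were searched for, and 10 and 9 of them marked their cluster.

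The proximal promoters of Cnmd, Tnmd, Angptl7 and Vegfa are shown because the first 3 of these genes were lower together in injured inner annulus cells, in the test that pairs the rounds, while Vegfa was not called. The sequences are RefSeq's (GRCm38.p6, the assembly of mm10) and run 5′ to 3′ on the strand of the gene, up to the base before the first transcribed base of RefSeq or GENCODE, whichever comes first. They cover chr14:79662184-79662433 on the minus strand for Cnmd, chrX:133850758-133850979 on the plus strand for Tnmd, chr4:148500463-148500712 on the minus strand for Angptl7 and chr17:46032378-46032627 on the minus strand for Vegfa. Capitals mark any match, on either strand, to AACAAT (a core bound by SOX factors), TATAAA (the TATA box), CANNTG (the E-box), ACGTG or GCGTG (cores of hypoxia response elements) and GGGCGG (the GC box).
Cnmd: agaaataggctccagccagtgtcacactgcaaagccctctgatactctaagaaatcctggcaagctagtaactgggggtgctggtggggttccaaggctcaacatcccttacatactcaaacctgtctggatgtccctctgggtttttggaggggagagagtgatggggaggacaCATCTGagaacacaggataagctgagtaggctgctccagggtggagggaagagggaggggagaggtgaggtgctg
Tnmd: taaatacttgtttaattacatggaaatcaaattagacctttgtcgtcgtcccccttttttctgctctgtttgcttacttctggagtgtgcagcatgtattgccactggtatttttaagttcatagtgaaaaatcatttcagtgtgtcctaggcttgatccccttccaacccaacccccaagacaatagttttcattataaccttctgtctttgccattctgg
Angptl7: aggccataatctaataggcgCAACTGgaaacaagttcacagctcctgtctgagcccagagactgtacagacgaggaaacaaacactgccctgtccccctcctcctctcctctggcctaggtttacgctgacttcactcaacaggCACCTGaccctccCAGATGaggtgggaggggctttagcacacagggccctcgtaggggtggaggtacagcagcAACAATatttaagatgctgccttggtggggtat
Vegfa: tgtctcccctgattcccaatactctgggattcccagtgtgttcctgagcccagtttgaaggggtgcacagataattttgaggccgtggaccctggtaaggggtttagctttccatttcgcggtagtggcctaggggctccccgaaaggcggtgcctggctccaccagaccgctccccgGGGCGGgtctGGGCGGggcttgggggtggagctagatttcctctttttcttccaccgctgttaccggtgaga
Angptl7 holds 1 AACAAT, which begins 33 bases before the RefSeq start site, and 3 E-boxes. Cnmd holds 1 E-box, Vegfa holds 2 GC boxes, and the 222 bases of Tnmd hold none of these motifs. Of all 32851 promoter windows of 250 bases, 9.42% hold AACAAT, 12.4% TATAAA, 66.2% an E-box, 16.6% ACGTG, 28.2% GCGTG and 32.7% GGGCGG. None of the 3 promoters other than that of Angptl7 holds AACAAT in this window. Of the 9 genes, 7 are in the promoter table, and Angpt1 and Angptl4 have no entry.

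Cnmd (ENSMUSG00000022025, chromosome 14, 79637690 to 79662170) was lower in injured discs when all cells were summed. It stood at 146 CPM (its UMIs divided by all UMIs of those cells, times 1e6) in control round 1 and 213 in control round 2, against 32.3 in injured round 1 and 35.1 in injured round 2. Both control libraries were above both injured ones, with means of 179 ± 47.5 and 33.7 ± 2.04 (SD, n = 2). This is a log2 fold change of -2.34 ± 0.37 (SE), and its edgeR adjusted p of 0.0836 misses the threshold of 0.05. In this comparison edgeR called 14 of 11990 genes (0.117%), none of them among the 8 of the 9 genes tested. With round as a block, which pairs pools of the same animals, 736 genes passed (6.14%; 2.73% higher and 3.41% lower), and Cnmd was lower by nearly the same amount (-2.33 ± 0.25, adjusted p = 9.12e-05). Tnmd and Angptl7 were the others of the 9 called with the block, both lower. In the 3 disc-cell classes together 2 of 11225 genes were called (0.0178%, both lower), none of the 9. With the block it was 3.96% (1.88% higher, 2.08% lower), and of the 7 of the 9 genes tested Cnmd and Angptl7 were lower (-2.41 and -2.34, edgeR adjusted p = 7.23e-04 and 0.00177). Without the block, Cnmd was also called by DESeq2 (adjusted p = 3.43e-05). By edgeR it was called without control round 1 (adjusted p = 0.00106), without control round 2 (0.0367) and without injured round 2 (0.00542), but not without injured round 1 (0.0536). Each of these fits leaves 1 library in a group, so the spread comes from the other group alone and the lone library is assumed to vary like it.

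**Figure D1:**
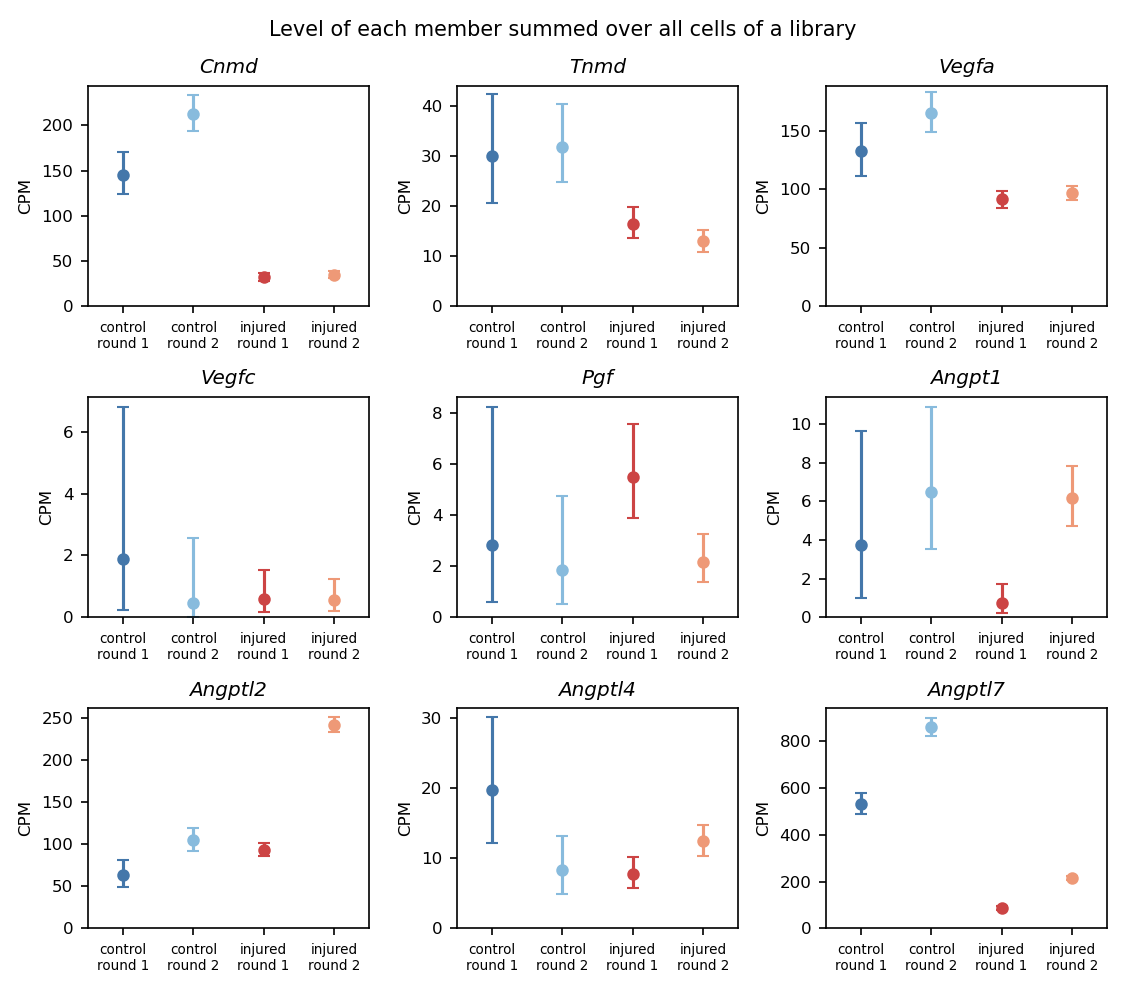
Level of each of the 9 genes in CPM, summed over all cells of a library. Points are the 4 libraries (blue control, red injured) and bars are exact 95% Poisson intervals, which cover counting error only. The 2 control libraries lie above the 2 injured ones for Cnmd, Tnmd, Vegfa and Angptl7, and the groups overlap for Vegfc, Pgf, Angpt1, Angptl2 and Angptl4. The share of all genes without overlap was not counted, so this is a description only.

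Cnmd transcripts were found in cartilage-like cells and hardly elsewhere. Over all libraries the cluster led by Grem1 (a BMP antagonist) had 526 CPM, and the cluster led by Plau had 277. The placing of the Plau cluster is uncertain: clustered at resolution 0.5 its counterpart stayed unnamed, with more outer annulus markers among its leading genes, and the inner class of control round 1 then held 37 cells. Next came an unnamed cluster led by mitochondrial genes with 45 CPM, and the other 4 inner annulus clusters had 3 to 22 CPM. In barcodes of at most 100 UMIs, which hold free RNA, Cnmd stood at 49.3 CPM in injured round 1. It was 32.2 in control round 2 and 29.3 in injured round 2. Levels of 45 CPM and below are thus read as background, and the injured all-cell levels lie in the same range. No UMI of Cnmd was seen in the nucleus pulposus-like (106 cells), macrophage-like (123), endothelial-like (65) and mural-like (35) clusters. Depth also limits a count of 0: 3 UMIs would be 6.23 CPM in the macrophage-like, 11.8 in the endothelial-like and 16.7 in the nucleus pulposus-like cluster. The nucleus pulposus-like cluster also had medians of 46.0% mitochondrial UMIs and 319 genes per cell, so its 0 may not stand for intact cells.

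In the inner annulus or cartilage-like class as a whole, Cnmd stood at 173 CPM in control round 1 and 265 in control round 2, and at 35.2 and 50.8 in the injured pools of those rounds. Again the groups did not overlap. The 35.2 of injured round 1 lies below the 49.3 CPM of Cnmd in barcodes of at most 100 UMIs of that library. Its fitted change was -2.19 ± 0.41 on the log2 scale (SE; edgeR adjusted p = 0.202). edgeR called 0 of 10888 genes there (849 had an unadjusted p under 0.05, and DESeq2 called 113, Cnmd among them with an adjusted p of 7.56e-04). The block raised this to 935 genes (8.59%; 4.51% higher and 4.08% lower), 4 of them among the 7 of the 9 genes tested: Cnmd (-2.20 ± 0.28, adjusted p = 5.66e-08), Angptl7, Tnmd and Angpt1, all lower. To set depth equal, cells were thinned to 1000 UMIs, which leaves out shallower cells (83 of 235 and 6 of 284 in control, 5 of 493 and 19 of 1122 in injured libraries). Of the cells kept, 9.87% and 21.9% in the controls held a Cnmd UMI against 3.28% and 4.17% in the injured libraries, and no thinned macrophage-like cell did. Unthinned shares over all cells of the class were 17.0% (28.8% without shared barcodes) and 34.9% against 13.8% and 8.56%. The exact two-sided permutation test gave p = 0.33, the smallest it can give with 2 against 2.

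Different clusters made up that class in the 2 groups, and the level of Cnmd within the Cnmd-rich clusters was not lower in injured discs. The Grem1 cluster made up 68.7% of the class in control round 2 (195 of 284 cells) and 6.15% in injured round 2 (69 of 1122 cells). Within it Cnmd stood at 456 CPM in control round 2 and 906 in injured round 2, a ratio of 1.99 (95% counting interval 1.68 to 2.34). In round 1 the Grem1 cluster had 20 control and 3 injured cells, with 263 and 332 CPM and a ratio interval from 0.144 to 5.13. In round 1 the Plau cluster held most of the Cnmd UMIs, at 202 CPM in 104 control cells and 319 CPM in 47 injured cells, a ratio of 1.58 (1.23 to 2.03). Few cells carried much of this signal: in the Plau cluster of injured round 1, 5 of 47 cells held 69.2% of the UMIs, and in the Grem1 cluster of injured round 2, 5 of 69 held 39.9%. Clusters that filled most of the class after injury were poor in Cnmd. The Saa1 cluster (60.0% of the class in injured round 2) stood at 21.0 CPM there, and the Bmp2 cluster (73.4% in injured round 1) at 13.3 CPM. In barcodes of at most 100 UMIs of these libraries Cnmd stood at 29.3 and 49.3 CPM, so both values are read as background. These cluster values rest on 1 pair of libraries each and were not tested.

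**Figure D2:**
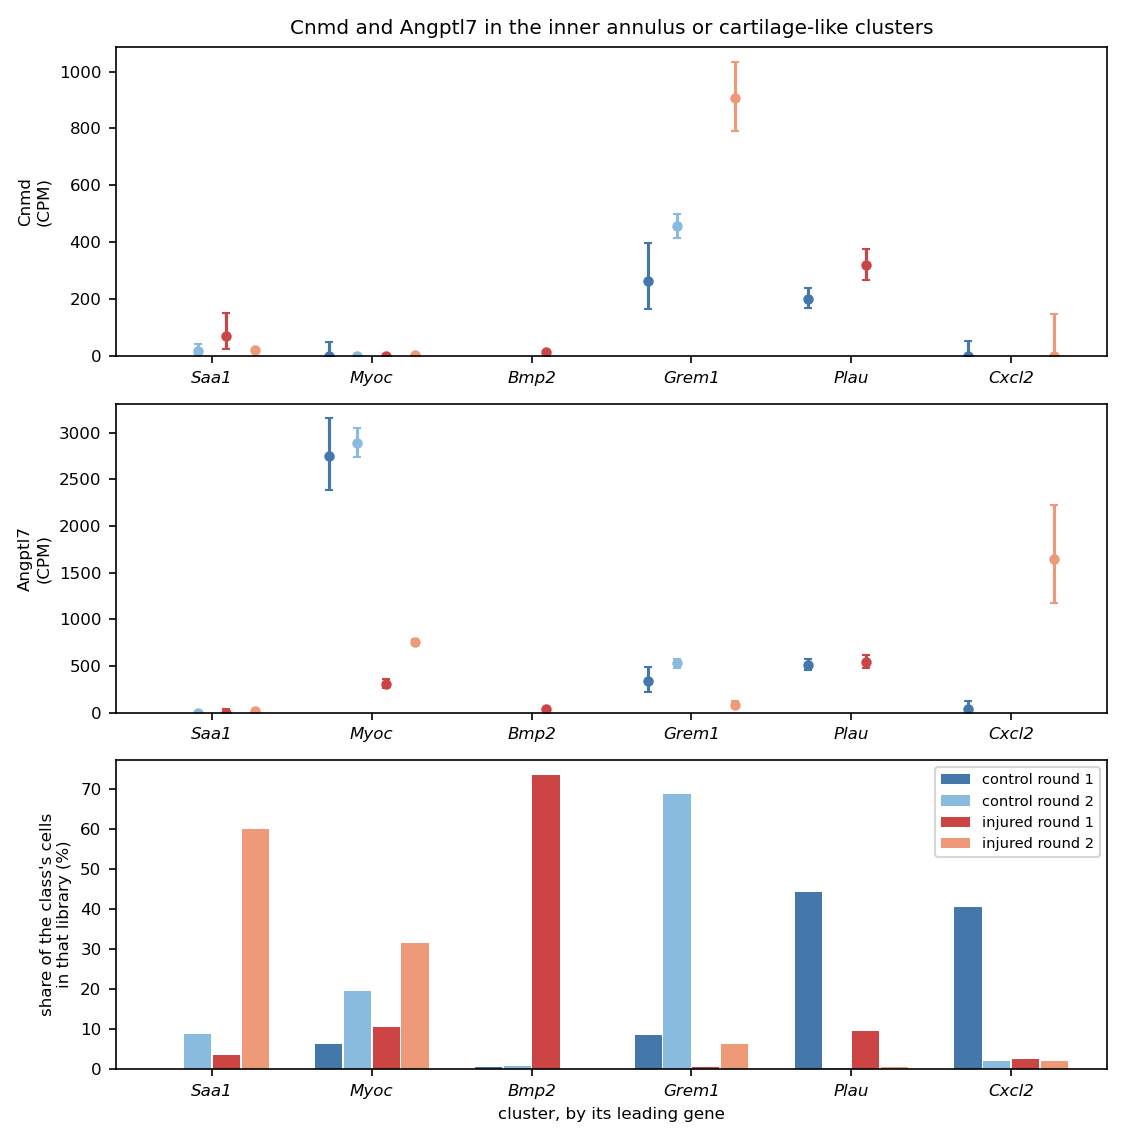
Cnmd (top) and Angptl7 (middle) in CPM in the 6 inner annulus or cartilage-like clusters, named by their leading gene, for each library with at least 15 cells there; bars are 95% Poisson intervals. The bottom panel gives the share (%) of the class's cells in each library that each cluster holds; Cnmd in the Grem1 cluster was 456 in control round 2 and 906 in injured round 2, while that cluster's share was 68.7% and 6.15%. All 95 cells of the Cxcl2 cluster in control round 1 are shared barcodes.

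Tnmd (ENSMUSG00000031250, chromosome X, 133850980 to 133865577), which marks mature tendon and ligament cells, was a low-level gene of disc cells. The inner class held 70.5% of its 349 UMIs and the outer class 29.5%. Summed over all cells it stood at 30.1 and 31.9 CPM in the controls and at 16.5 and 13.0 in the injured libraries. The groups did not overlap. The log2 fold change was -1.02 ± 0.36 (SE, edgeR adjusted p = 0.523), and with the round block it was -1.03 ± 0.27 (adjusted p = 0.0419). The cluster led by Myoc, whose place in the inner class is uncertain, held 54.2% of its UMIs and the outer annulus cluster led by Aspn 25.8%. In the Myoc cluster Tnmd was at 187 CPM in control round 1, 120 in control round 2, 132 in injured round 1 and 17.2 in injured round 2. In the Aspn cluster it was at 37.2 CPM in the 238 cells of injured round 2 and 116 in the 13 of injured round 1, with no UMI in the 5 control cells. In the Myoc cluster only injured round 2 stood apart, and 5 of 52 cells held 76.7% of the UMIs of injured round 1. In the inner class Tnmd fell by 1.71 ± 0.31 on the log2 scale with the block (adjusted p = 8.13e-05; -1.63 ± 0.43 and 0.344 without it).

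Angptl7 (ENSMUSG00000028989, chromosome 4, 148495183 to 148500460) also had a large difference over all cells. Summed over all cells it stood at 533 and 861 CPM in the controls against 86.8 and 216 in the injured libraries. The groups did not overlap. On the log2 scale this was -2.11 ± 0.54 (SE; edgeR adjusted p = 0.299), and -2.24 ± 0.30 with the round block (adjusted p = 5.69e-04). DESeq2 without the block also called it (adjusted p = 0.00540). By edgeR without the block it was called when control round 1 was left out (adjusted p = 0.00609) or injured round 2 (2.77e-04), and not when control round 2 (0.195) or injured round 1 (0.236) was, each with a lone library whose spread is taken from the other group.

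By cell type, the Myoc cluster, which is also marked by Cilp2, had the highest Angptl7 level of the clusters of at least 15 cells in both control libraries, but not in the injured ones. In injured round 1 it had 306 CPM against 544 in the Plau cluster, and in injured round 2 it had 759 against 1640 in the Cxcl2 cluster, which rest on 41 UMIs in 6 of 22 cells. Pooled over libraries, the Myoc cluster had 987 CPM, the Plau cluster 503, the Cxcl2 cluster 476 and the Grem1 cluster 430. Those of the outer class had 0 to 22 CPM, and no UMI was seen in endothelial-like or mural-like cells. With the markers used here the Myoc cluster falls in the inner class. Its leading genes include Fmod and Comp, matrix genes of tendon as well as cartilage, so that placing is uncertain, and the comparison inside it was added after its values were seen.

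Within the Myoc cluster Angptl7 was at 2751 CPM in control round 1 (15 cells), 2888 in control round 2 (55 cells), 306 in injured round 1 (52 cells) and 759 in injured round 2 (352 cells). The controls were close together and far above both injured libraries, with means of 2819 ± 96.7 and 533 ± 320 (SD, n = 2). A log2 fold change of -2.27 ± 0.48 (SE) had an edgeR adjusted p of 0.0507, just over the threshold, where 57 of 5517 genes were called (1.03%). It was called with the block (-2.44 ± 0.39, adjusted p = 0.00680; 176 genes or 3.19% called, 1.90% higher and 1.29% lower), with the scaling of DESeq2 in edgeR (0.0300) and by DESeq2 (3.02e-04). Leaving out single libraries moved the edgeR adjusted p from 1.55e-06 (without injured round 2) and 0.00300 (without control round 1) to 0.164 (without control round 2) and 0.641 (without injured round 1), again with 1 library left in a group. Thinned to 1000 UMIs, 73.3% and 72.7% of control cells of the cluster held an Angptl7 UMI against 15.4% and 27.4% of injured cells. Unlike Cnmd, Angptl7 was thus lower within the Myoc cluster in both rounds, with injured to control ratios of 0.111 (95% counting interval 0.0904 to 0.137) and 0.263 (0.245 to 0.282). In the Grem1 cluster of round 2 it was also lower, at 527 and 83.1 CPM, whereas in the Plau cluster of round 1 control cells had 513 CPM and injured cells 544.

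The inner class as a whole had 649 and 1089 CPM of Angptl7 in the controls against 99.0 and 307 in the injured libraries, with no overlap. There the log2 fold change was -1.90 ± 0.60 (SE, edgeR adjusted p = 0.451), and with the block -2.12 ± 0.36 (adjusted p = 2.87e-05). Markers of other cell types, summed over the class, differed too. The 12 endothelial markers summed to 306 and 351 CPM in the controls and 176 and 200 in the injured libraries. Most of that was Ramp2, a receptor accessory protein with 86.3% of its UMIs in the inner class, at 271 and 328 against 136 and 171 CPM. The other 11, set apart after these values were seen, overlapped between groups, at 34.5 and 22.4 against 40.2 and 28.2 CPM. The 14 macrophage or monocyte markers were at 54.0 and 26.6 against 66.1 and 61.3, and the 10 mural markers at 152 and 243 against 163 and 354. In the Myoc cluster Ramp2 was at 467 and 337 against 260 and 266 CPM, and the other 11 endothelial markers at 0 and 13.1 against 14.4 and 30.3. Also in the Myoc cluster, the 10 mural markers were at 227 and 223 against 352 and 435 CPM and the 14 macrophage or monocyte markers at 13.4 and 21.9 against 28.8 and 35.0, both without overlap. The part of these markers in the Angptl7 and Angptl2 results was not tested.

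**Figure D3:**
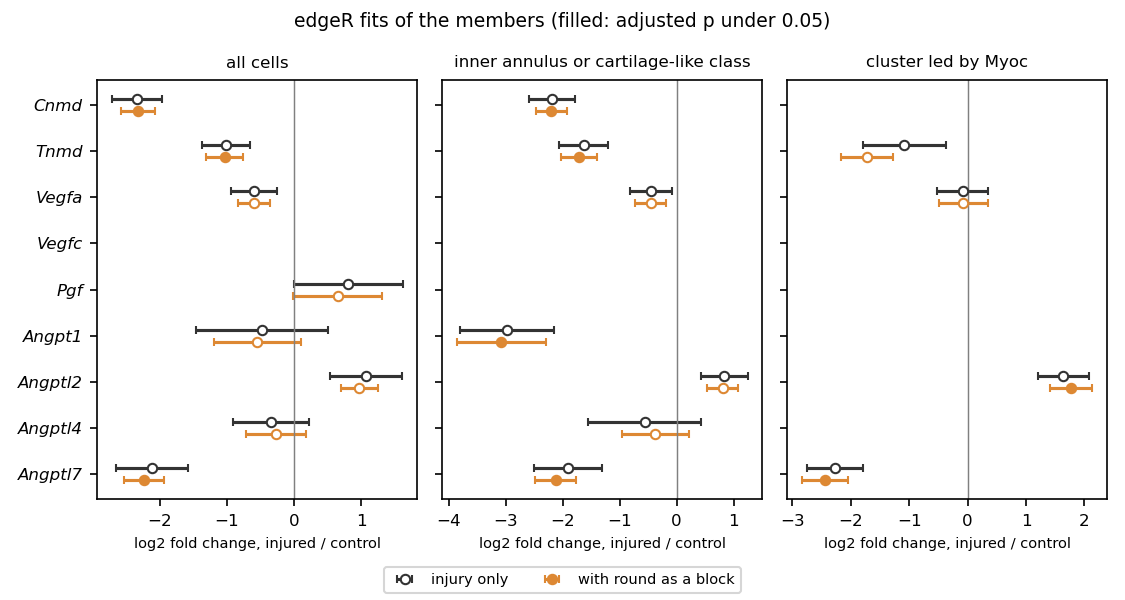
Log2 fold change of injured over control discs (horizontal axis) with its SE from edgeR, for the genes that passed the filter on low counts in all cells, in the inner class and in the Myoc cluster. Black points are fits with injury alone and orange points have round as a block; filled points have an adjusted p under 0.05, which holds for Cnmd, Tnmd and Angptl7 in all cells, for these and Angpt1 in the inner class, and for Angptl2 and Angptl7 in the Myoc cluster, each with the block only.

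Vegfa (ENSMUSG00000023951, chromosome 17, 46016993 to 46032369), the main growth factor for blood vessels, had UMIs in every cluster. In barcodes of at most 100 UMIs, which hold free RNA, it stood at 23.0 to 46.1 CPM in the 3 libraries that list such barcodes, so levels in that range or below are read as background. Over all cells the controls had 132 and 165 CPM and the injured libraries 91.3 and 96.7. The 2 groups did not overlap, but the log2 fold change of -0.60 ± 0.34 (SE) passed no threshold (edgeR adjusted p = 0.757, and 0.174 with the block). Its level was highest in the Grem1 and Saa1 clusters, at 212 ± 18.4 and 216 ± 51.3 CPM (SD, n = 3 libraries with at least 15 cells), which did not differ beyond their spread, and lowest in the endothelial-like (16 CPM) and AY036118 (15 CPM) clusters, leaving aside clusters under 30 cells. Within the Grem1 cluster of round 2 it was 226 CPM in control and 220 in injured cells, a ratio of 0.976 (95% counting interval 0.709 to 1.32), whereas in the Plau cluster of round 1 it was 156 CPM in control and 91.1 in injured cells, a ratio of 0.583 (0.390 to 0.854). In the inner class the log2 fold change was -0.45 ± 0.36 (edgeR adjusted p = 0.831, and 0.325 with the block). Among inner class cells of at least 1000 UMIs, thinned to that number, shares with a Vegfa UMI were 12.5% and 12.9% in control and 11.1% and 10.8% in injured libraries.

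Pgf (ENSMUSG00000004791, chromosome 12, 85166635 to 85177790) was rare, with 67 UMIs in all cells, and lay mainly outside the disc-cell classes. Macrophage-like cells held 26 of the UMIs (54 CPM), all in 8 of the 119 injured cells of that cluster, endothelial-like cells 14 (55 CPM) and mural-like cells 6 (36 CPM). Few cells set these levels: the fullest macrophage-like cell held 11 UMIs in injured round 1 and 5 in injured round 2. In injured round 1, 4 endothelial-like cells held 12 UMIs and 2 mural-like cells held 6. The 2134 inner class cells held 6, all in injured libraries. Its all-cell levels of 2.82 and 1.85 CPM in control and 5.50 and 2.18 in injured libraries overlapped, and the log2 fold change was 0.80 ± 0.81 (SE, edgeR adjusted p = 0.891). Since the macrophage-like cluster held 4 control and 119 injured cells, fewer or more cells of a type and less or more RNA per cell cannot be told apart in these sums. Vegfc (ENSMUSG00000031520, chromosome 8, 54077606 to 54187096) had 13 UMIs in 13 cells, 3 in control and 10 in injured libraries, and was too low to test.

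Angpt1 (ENSMUSG00000022309, chromosome 15, 42424723 to 42676977) had 88 UMIs. Its levels were 3.76 and 6.48 CPM in the controls, 0.743 in injured round 1 and 6.16 in injured round 2, so the groups overlapped. Of the 65 UMIs of injured round 2, 36 lay in the Aspn cluster and 23 in the cluster of dividing cells led by Hist1h2ap. In the inner class Angpt1 was lower, at 4.59 and 5.32 CPM in control and 0.858 and 0.277 in injured libraries. That difference was called with the block (-3.07 ± 0.78, edgeR adjusted p = 0.00694) and not without it (-2.98 ± 0.83, 0.366), and it rests on 13 control and 7 injured UMIs.

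Angptl2 (ENSMUSG00000004105, chromosome 2, 33216069 to 33247717) was highest in the unnamed Ccl11 cluster, at 583 CPM (95% counting interval 447 to 747, which holds the 2 levels that follow). It stood at 519 CPM in the dividing cluster, 502 in the Aspn cluster and 423 in mural-like cells, against 49 to 149 CPM in the 6 inner annulus clusters and 8 in endothelial-like cells. Over all cells it was at 63.9 and 105 CPM in the controls, 93.7 in injured round 1 and 242 in injured round 2. The groups overlapped. In control round 2, 54 of its 227 UMIs lay in the Ccl11 cluster, which is in no disc-cell class. In the disc-cell classes together the groups did not overlap, at 67.3 and 78.0 CPM in control against 94.9 and 249 in injured libraries, nor in the inner class, at 60.9 and 82.7 against 87.7 and 141. Neither difference was called (1.33 ± 0.52 and 0.83 ± 0.41, edgeR adjusted p = 0.635 and 0.683, and 0.0687 and 0.0522 with the block). Over all cells its log2 fold change was 1.07 ± 0.53 (SE, edgeR adjusted p = 0.707, and 0.0548 with the block). Without injured round 2, which held 427 of the 459 outer class cells, it was 0.18. Within the Myoc cluster Angptl2 had 26.7 and 61.2 CPM in the controls and 132 and 171 in injured libraries, without overlap. Here it was higher by 1.64 ± 0.44 on the log2 scale (edgeR adjusted p = 0.112), and by 1.78 ± 0.36 with the block (0.0214). In control round 1 this value rests on 2 UMIs in 15 cells.

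Angptl4 (ENSMUSG00000002289, chromosome 17, 33773750 to 33781830) had 222 UMIs. It was highest in the shallow Ccl11 cluster (160 CPM from 17 UMIs), mural-like cells (71) and the Aspn cluster (38). The inner annulus clusters had 2.30 to 11.5 CPM, and barcodes of at most 100 UMIs 1.53 to 9.09. All-cell levels were 19.7 and 8.33 CPM in control and 7.73 and 12.4 in injured libraries, which overlapped (log2 fold change -0.35 ± 0.57 (SE), edgeR adjusted p = 0.943). In control round 2, 15 of its 18 UMIs lay in the unnamed Ccl11 cluster. In the disc-cell classes together the levels were 16.8 and 1.11 CPM in control, the latter from 2 UMIs, and 6.69 and 12.7 in injured libraries, again with overlap. Of 10 hypoxia-induced genes and 2 of 4 PPAR target genes tested in the inner class, the groups of genes to which Angptl4 and Vegfa also belong, none was called with or without the block. Medians of log2 change were 0.17 and 0.28, against -0.03 over all genes. Adm, a vasodilator peptide, was lowest at -0.95 ± 0.53, Egln3, an oxygen sensor, highest at 0.68 ± 0.65, and Ldha, a glycolytic enzyme with the highest level, at 0.08 ± 0.37 (edgeR adjusted p from 0.714 to 0.979). Plin2, a lipid droplet coat protein, had 0.51 ± 0.62 and Cpt1a, which carries fatty acids into mitochondria, 0.06 ± 0.59 (edgeR adjusted p = 0.889 and 0.992).

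**Figure D4:**
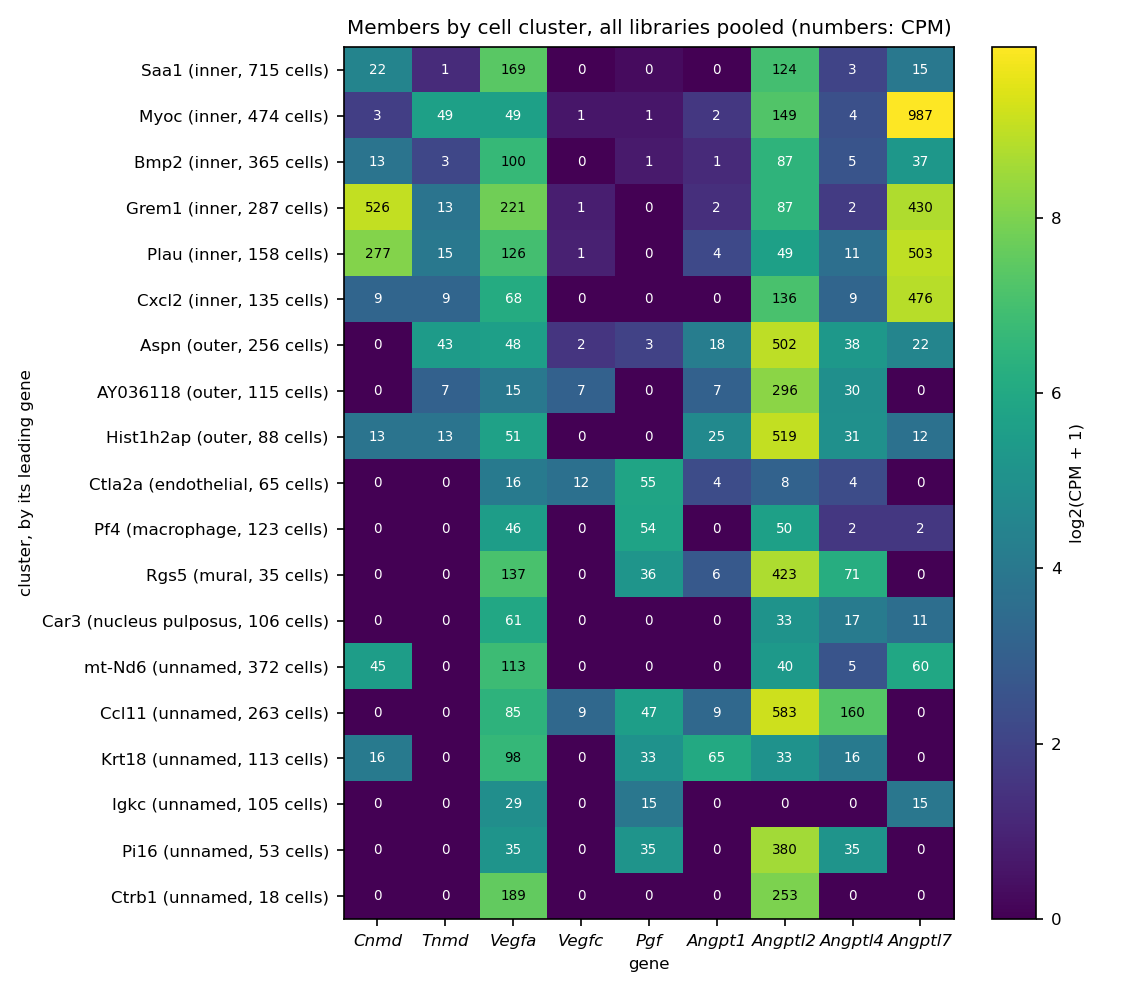
CPM of each gene (columns) in each of the 19 clusters (rows, named by leading gene, class and number of cells), pooled over the 4 libraries; colour is log2(CPM + 1). Cnmd is highest in the Grem1 (526) and Plau (277) clusters, Angptl7 in the Myoc cluster (987), and Angptl2 in the unnamed Ccl11 cluster (583), followed by the dividing, Aspn and mural-like clusters. The Ccl11 cluster is shallow, with a median of 379 UMIs per cell.

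Outer and inner annulus classes were compared within libraries, since Tnmd is a tendon gene and Cnmd a cartilage gene. edgeR, with library as a block, called 877 of 8107 genes (10.8%; 4.43% higher and 6.39% lower in outer cells), 3 of them among the 5 of the 9 genes tested. Cnmd was lower in outer cells (log2 difference -3.10 ± 0.66 (SE), edgeR adjusted p = 8.23e-05) and Tnmd higher (1.54 ± 0.41, 0.00275). Angptl7 was lower (-4.15 ± 0.78, 4.14e-06), but this turned to 2.59 when the Myoc cluster was moved to the outer class, an alternative added after its values were seen. Vegfa and Angptl2 were not called (-1.37 ± 0.52, 0.0668, and 1.29 ± 0.57, 0.143). With 6 and 4 outer cells in the controls these values rest mostly on injured libraries. Without injured round 2 neither Cnmd (-1.27, edgeR adjusted p = 0.559) nor Tnmd (1.47, 0.180) was called, and without injured round 1 Tnmd was not (1.05, 0.433). By DESeq2 neither gene was called (adjusted p = 0.225 and 0.308), and by edgeR with no replicate block Tnmd was not (0.721, 0.415) while Vegfa was (-1.52, 0.0442). Over the 15 alternatives Vegfa was called in 6 and Angptl2 in 3. A test of whether the injury effect differed between the classes called 0 of the 7 genes tested (and 2 of 9587 genes, 0.0209%); with SEs of 0.954 to 6.29 on the log2 scale it leaves room for large differences. In the outer class alone Angptl2 (1.14 ± 1.00) and Vegfa (0.72 ± 1.40) were the only ones tested, and neither was called by edgeR (adjusted p = 0.834 and 0.952, where 4 of 2423 genes or 0.165% were, and 0.0413%, all lower, with the block).

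Receptors for these ligands were mostly found in endothelial-like cells. The 65 endothelial-like cells held 70.3% of Flt1, 91.8% of Kdr, 79.5% of Tek and 92.9% of Tie1 UMIs, and all 3 UMIs of Flt4. The co-receptors were different: endothelial-like cells held 14.3% of Nrp1 UMIs and the outer class 40.6%, while the inner class held 72.0% of Nrp2 UMIs and 76.1% of the UMIs of all genes. Of 5 VEGF receptors and co-receptors 4 were tested over all cells and none was called, with Nrp1 lowest at -0.15 ± 0.42 and Nrp2, which had the highest level, at 0.64 ± 0.59 (edgeR adjusted p = 0.977 and 0.879). Tek had -0.40 ± 0.94 and Tie1 0.34 ± 0.90 (0.970 and 0.975). Summed over all cells, the 12 endothelial markers stood at 456 and 411 CPM in control and 399 and 235 in injured libraries, and without Ramp2 the other 11 stood at 209.5 and 132.8 against 263.7 and 93.1, with overlap. The 14 macrophage or monocyte markers over all cells were at 113 and 275 CPM against 460 and 520, and the 10 mural markers at 209.5 and 291.5 against 332 and 415, both without overlap. The part of these markers in the all-cell results was not tested. Among other ligands of these families, Vegfb was lowest at -0.41 ± 0.40 and Vegfd highest at 0.32 ± 1.10 (0.887 and 0.985), and 4 of 8 passed the filter. The outer class held most of a further pair: Angptl1 had 84.0% and Vegfd 77.0% of its UMIs there. Of the other inhibitors of vessel growth none was called over all cells without the block. Thrombospondin 1 (Thbs1) had 805 and 634 CPM in the controls and 367 and 245 in injured libraries, with a log2 fold change of -1.18 ± 0.38 (edgeR adjusted p = 0.469) that was called with the block (-1.19, 0.0218). The metalloproteinase inhibitor Timp3, at 857 and 913 against 2639 and 1408 CPM, had a log2 fold change of 1.24 ± 0.41 (0.489). These 2 were the only ones of 6 tested with an unadjusted p under 0.05, as were 948 of all 11990 genes tested, and with the block 1 of 6 was called, against 6.14% of all genes.

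No gene of the cartilage programme was called lower in the inner class by edgeR with or without the block. There Col2a1, the main collagen of cartilage, had 1235 and 1687 CPM in the controls and 6085 and 7908 in injured libraries. It had a log2 fold change of 2.42 ± 0.44 (SE, edgeR adjusted p = 0.192) and rose with the block (2.40 ± 0.52, 0.00130), as did Hapln1, which links aggrecan to hyaluronan (1.37 ± 0.34, 0.00604). Sox9, the cartilage transcription factor, had the lowest value of the list, -0.34 ± 0.40 (0.879). Of 8 cartilage genes 7 were tested, with 4 above and 3 below 0 and a median of 0.17. Of the tendon programme, in which Tnmd is also placed, 3 of the 6 genes tested were called with the block, against 8.59% of all genes there. Of the 6 tested in the inner class, with a median of -0.04, the transcription factor Mkx had -0.996 ± 0.527 (0.705) and Col1a1 1.71 ± 0.42 (0.293) without the block. With it Mkx (-0.95, 0.0254) and Egr1 (-1.46, 0.0104) were lower and Col1a1 was higher (1.69, 0.0150). Over all genes tested in this class the median was -0.03.

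Likeness across the 18 clusters of at least 30 cells was described for the 6 genes with at least 200 UMIs, by Pearson correlation of log2(CPM + 1) over 7998 genes. Points share libraries and depth, so no p is given. Cnmd was closest to Col9a2 (r = 0.87), 1520401A03Rik (0.87) and Nos1 (0.85), Tnmd to Dkk3 (0.90), Col8a1 (0.88) and Uts2r (0.86), and Angptl7 to Col8a2 (0.92), Slurp1 (0.90) and Cytl1 (0.90). Vegfa was closest to Cystm1 (0.83), Hr (0.83) and Agt (0.81), Angptl2 to Ctsk (0.97), Itgb5 (0.97) and Maged2 (0.93), and Angptl4 to Cygb (0.88), Col5a3 (0.87) and Cald1 (0.85). Within the 9, Angptl2 and Angptl4 went together most (0.77), followed by Cnmd and Vegfa (0.69). Cnmd and Angptl7 had r = 0.64 across clusters. In single disc cells of at least 1000 UMIs, thinned to that number, their overlap was low in round 2. In control round 2, 4.92% of the 61 cells with a Cnmd UMI also held one of Angptl7, against 26.7% of cells without Cnmd, and in injured round 2 these shares were 2.17% and 7.90%. Round 1 gave 13.3% and 23.9% in control and 11.1% and 5.48% in injured cells, each from 2 cells with both. Tnmd went the other way, with Angptl7 in 6 of 9 cells that held Tnmd in control round 2 and in 21.5% of the others.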

How the data were processed

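The deposited matrices hold UMI counts per gene and barcode. Cell Ranger and mm10 are named in the submitters' processing notes, and per the file headers its version was 6.0.0 for control round 1 and 4 for the other libraries. The counts are whole numbers and not normalized. The 9 genes, the gene lists and the named-gene rule (all members; of each list the genes called, with the largest and smallest change and with the highest level) were chosen with earlier results of these data known.

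Barcodes with at least 250 genes were kept as cells, as the series text states. UMIs were scaled to 10000 per cell and log-transformed. The 2000 most variable genes, without the 9, were reduced to 30 principal components, and a graph of 20 shared neighbours was partitioned by the Leiden method (leidenalg 0.10.2, resolution 1). Clusters were named from fixed marker lists: a marker counted if seen in 25% of cells at 1.2 times the mean of other cells, and a name needed 3. Rebuilt names can differ from those of the authors. Scrublet (scanpy 1.11.5) called 0 to 6 doublets a library, too few to have worked, and these cells were kept.

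Counts were summed per library and cell group and tested with the quasi-likelihood test of edgeR 4.0.16 (R 4.3.3), default filter on low counts, TMM scaling and Benjamini-Hochberg adjustment over all genes tested. Calls are at an adjusted p below 0.05. The labels say that control and injured discs come from the same animals, so rounds were taken to pair the pools. Deviations of same-round libraries from their group means correlated at 0.557 over 9930 genes. That value was taken over all cells, shared barcodes included, and pairing by animal and a batch common to a round cannot be told apart in it. Poisson intervals and ratio intervals are at 95% and cover counting error only. Alternatives were the round block, DESeq2 1.42.0, other scaling, no filter on low counts, other cell filters and cluster resolution, leaving out shared barcodes, and leaving out each library; the comparison within the Myoc cluster, its move to the outer class and one stricter barcode filter were chosen after seeing the data. Where nothing in the labels separates animals within a pool, p-values measure the spread between pools, or with the block that between within-round differences. The edgeR test without the block was also run on simulated counts with independent libraries and no round effect. That run does not cover the fits with the block, and its outcome is not given here.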

Additional observations from a re-analysis of the deposited data

Results flagged for a closer look

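Barcodes of at most 100 UMIs, which hold free RNA rather than cells and enter none of the comparisons, held more of 3 genes in injured round 2 than in control round 2. Angptl2 stood there at 62.7 CPM in the injured and 15.98 in the control library, a ratio of 3.92 (95% counting interval 3.00 to 5.18). Angptl4 stood at 7.06 against 1.53 CPM, a ratio of 4.60 (1.95 to 12.6). Pgf stood at 2.99 against 0.876 CPM, a ratio of 3.41 with an interval from 1.01 to 14.7. Round 1 gives no such comparison because control round 1 lists no barcode under 502 UMIs, so these are single pairs of libraries without a replicate.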

How the results depend on the processing

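Only 2 pools per group limit every test, and 1064193 to 10558620 UMIs in cells limit the rare genes. Pairing rounds by a replicate block changed the calls named in the text and no other call of the 9 genes, and it moved the number of genes called to 736 over all cells, 445 in the disc-cell classes together, 935 in the inner class, 1 in the outer class and 176 in the Myoc cluster. DESeq2 called 181, 126, 113 and 37 genes over all cells, disc-cell classes, inner and outer class, and 0 for the difference of injury effects between classes. Without a filter on low counts the numbers were 378, 289, 226, 1 and 199 (Myoc cluster), then 2160 for outer against inner and 1 for the difference of effects. Size factors of DESeq2 in edgeR (RLE) gave 13 in the outer class and 1 for the difference of effects. A minimum of 500 genes gave 0 over all cells, 0 in the disc-cell classes and 7 in the outer class, and under 10% mitochondrial UMIs gave 0 in the disc-cell classes, 13 in the inner class and 0 in the outer class. Clusters at resolution 0.5 gave 58 (disc-cell classes), 265 (inner class) and 1 (difference of effects). Without shared barcodes there were 2 over all cells and 8 in the outer class, and without similar and shared barcodes, an alternative chosen after seeing the data, 3 and 8. Similar barcodes are those of control round 1 with 0.3 to 3 times as many UMIs in injured round 1. All 11 control round 1 cells of the Ccl11 cluster have them. The Myoc cluster in the outer class gave 134 there and 28 for the difference of effects. Leaving out 1 library at a time, with the lone library assumed to vary like the other group, gave 126 to 273 over all cells, 48 to 129 in the disc-cell classes, 0 to 198 in the inner class, 0 to 334 in the outer class, 0 to 195 in the Myoc cluster, 189 to 1241 for outer against inner and 0 to 153 for the difference of effects. The cause of these shifts was not tested.

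Cnmd, Tnmd and Angptl7 stayed lower over all cells and in the inner class under every alternative run. The following log2 values changed sign, and of these only Angptl7 in outer against inner cells was called; the ranges leave out 1 library at a time. Over all cells Angpt1 ranged from -2.73 (without injured round 2) to 0.33 (without injured round 1), Angptl4 from -0.90 to 0.40, Nrp1 from -0.42 to 0.088, Nrp2 from -0.16 to 1.46, Tie1 from -0.50 to 1.55 and Vegfd from -2.22 to 1.27. With at least 500 genes Angptl4 was 0.25, Nrp1 0.19, Tek 0.58 and Vegfb 0.033. In the disc-cell classes Angpt1 ranged from -0.49 to 0.41 and Angptl4 from -0.73 to 3.24. In the inner class Angptl4 ranged from -1.64 to 2.09, Cpt1a from -0.31 to 0.85 and Ldha down to -0.085, and clusters at resolution 0.5 gave 0.49 for Angptl4, -0.40 for Cpt1a and 0.17 for Sox9. Vegfa in the Myoc cluster ranged from -0.25 to 1.04, was 0.011 by DESeq2 and 0.075 without the filter, and in the outer class was -0.087 with the Myoc cluster moved there. That move took Angptl7 in outer against inner cells to 2.59 (edgeR adjusted p = 6.53e-05). In outer against inner cells Vegfa gained a call with that move (0.00101), RLE (0.0101), without control round 2 (0.0183), without the filter (0.0351), with no replicate block (0.0442) and with clusters at resolution 0.5 (0.0494), and Angptl2 without control round 2 (0.00356), with RLE (0.0207) and with no replicate block (0.0376), all edgeR adjusted p. Without thinning, the share of inner class cells with a Vegfa UMI was 9.35 percentage points higher in injured cells, and for Angptl2 the thinned difference ranged from -0.657 to 4.07 points.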

Other observations

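In the same barcodes of at most 100 UMIs in round 2, Cnmd differed little between the libraries, at 32.2 CPM in control and 29.3 in injured (ratio 0.911, 95% counting interval 0.704 to 1.18), while over cells of that round it was 213 and 35.1 CPM. Angptl7 was lower in both, at 86.0 and 41.0 CPM in these barcodes (ratio 0.476, 0.392 to 0.576) and at 861 and 216 CPM in cells. In control round 2 only 21.8% of UMIs lay in cells, against 62.2% in injured round 2.

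Of the other inhibitors of vessel growth, Timp3 and Thbs1 had 95.5% and 91.6% of their UMIs in the inner annulus class, which held 76.1% of the UMIs of all genes. Adamts1 (71.9%), Thbs2 (66.2%) and Col18a1 (2.08%) had less there, as did Serpinf1. With round as a block, 8.59% of all genes tested in the inner annulus class were called (4.51% higher, 4.08% lower). Among them Timp3 was higher in injured cells (1.48 ± 0.42 on the log2 scale, edgeR adjusted p = 0.0188). Serpinf1, which encodes pigment epithelium-derived factor, was lower (-0.952 ± 0.292, 0.0292). Neither was called in that class without the block.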
